A study of Arabidopsis thaliana with 6 samples.

Results

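The young miRNAs described here are those of Arabidopsis thaliana with a family number of 400 or higher, most of which are known from this plant and its close relatives alone. A sequence of the deposited table was counted as a member when its full length matched, without mismatch, the sense strand of an annotated nuclear miRNA precursor of such a family. Precursors in the rDNA units, sequences of the organelles and the families MIR403, MIR408, MIR827, MIR838 and MIR857, of which several are old, were left out. Of 222 annotated precursors that met the rule, 34 held a listed sequence and 188 held none. These 34 loci belonged to 29 of 181 families and held 70 of the 18124 distinct sequences of the table. The other nuclear miRNA loci, called older miRNAs here, held 244 listed sequences at 85 of 102 loci, and 0 of them were shared with the young loci. The name stands for a family number below 400 or a family left out by the rule. The age of single families was not checked.

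The study sequenced small RNAs from leaves of the rdr1 mutant (3 libraries) and of wild-type (WT) plants (3 libraries). All plants were untreated and were grown with 16 h of daylight at 22 °C. RNA was extracted with TRIzol, libraries were made with HD adapters, whose random end bases reduce ligation bias, and 50-nt single-end reads were taken on an Illumina HiSeq. RDR1 is an RNA-dependent RNA polymerase, which makes double-stranded RNA on a single-stranded template, and the labels give neither the allele nor whether libraries came from separate plants. The p-values therefore measure the spread between these libraries, which may be technical.

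Plant miRNAs are cut from hairpin precursors, usually by DCL1, which releases a duplex of about the length that AGO1 binds. One strand guides the Argonaute protein to a complementary mRNA and the other is mostly lost. Many young hairpins are long, nearly perfect inverted repeats that arose from copies of their target genes. Such hairpins are known to be cut also by DCL4, at several successive positions, and by DCL3, which gives longer products of the kind that AGO4 binds. Young miRNAs are usually weakly expressed, and RDR enzymes are not needed for a hairpin to fold.

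The sequences that the results turn on are given 5′ to 3′, with T for U as in the deposited table and with the seed, bases 2 to 8, in capitals. The first set holds 9 products of 20 to 22 nt, each the most abundant of its locus, and the last of them is shared by a pair of loci.

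miR824-5p (MIR824, 5p arm): tAGACCATttgtgagaaggga
miR400 (MIR400, 5p arm): tATGAGAGtattataagtcac
miR823 (MIR823, 3p arm): tGGGTGGTgatcatataagat
miR5026 (MIR5026, 3p arm): aCTCATAAgatcgtgacacgt
miR847 (MIR847, 3p arm): tCACTCCTcttcttcttgatg
MIR863 3p arm, from position 233: aTGCGATTgagagcaacaaga
miR775 (MIR775, 3p arm): tTCGATGTctagcagtgcca
miR402 (MIR402, 5p arm): tTCGAGGCctattaaacctctg
miR447a-3p (MIR447a and MIR447b, 3p arm): tTGGGGACgagatgttttgttg

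The second set holds 3 products that follow each other on the 3p arm of MIR822, in the order of their start positions in the precursor.

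miR822-3p, from position 270: tGTGCAAAtgctttctacagg
MIR822 3p arm, from position 291: aAACAATAtacgttgcatccc
MIR822 3p arm, from position 313: aTCTACTTacacttaaggtcg

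The third set holds the 5 members of 24 nt, of which 4 had a log2 fold change below 0, where 54 of 59 members of 20 to 22 nt had one above 0.

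MIR4245 5p arm: aATTGTCAgtataaatctttgatc
MIR4245 3p arm: aCAAAGTTttatactgacaattca
MIR5020b 5p arm: aTGGCATGaaagaaggtgagaatt
MIR775 3p arm: tTTGGTTTgttcaaagacattttc
MIR8172 3p arm: aAATTTAGgctaatttgtgaaact

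All values without another unit are normalised read counts, scaled to 8000000 reads of a library total. These totals were 6377499, 4668411 and 6601783 reads in rdr1 replicates 1 to 3 and 5499464, 8988961 and 9955668 reads in WT replicates 1 to 3, so that 1 read was worth 0.804 to 1.71. Libraries differed in fragment length within each genotype. The shortest class, 17 to 19 nt, took 35.2%, 15.2% and 13.6% of the value in rdr1, against 5.72%, 18.2% and 16.9% in WT. The longest, 28 to 34 nt, took 4.87%, 15.7% and 17.7% in rdr1 and 35.3%, 26.2% and 9.94% in WT. rdr1 replicate 1, rich in the shortest sequences, and WT replicate 1, rich in the longest, stood apart. The sum of older miRNA sequences was 577800, 644900 and 540400 in rdr1 and 277800, 541800 and 725000 in WT, lowest in WT replicate 1. The genotype could not be checked from the listed small RNAs. MIR845a and MIR845b, known as pollen miRNAs, held 0 listed sequences.

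Of the 70 sequences, 46 were 21 nt long, 8 were 22 nt, 5 were 20 nt and 5 were 24 nt, and the other 6 were of 17 to 19 nt or 28 nt. The 5p arm held 33 and the 3p arm 37, as read from the folded precursor. Where the annotated name gives an arm, it was the same in 22 of 22 cases. Products of 20 to 22 nt began with T in 32 of 59 cases, with A in 22, with C in 5 and with G in 0. Older miRNA sequences of these lengths began with T in 73 of 151 cases, with A in 26, with C in 18 and with G in 34. By value, T-initial sequences held 74.7% and A-initial ones 22.8% of the young 20 to 22 nt products, against 83.0% and 7.32% of the older ones. AGO1 is known to prefer a 5′ U, and AGO2 and AGO4 a 5′ A. Of the 24-nt members 4 began with A and 1 with T.

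An annotated mature sequence was met exactly by 23 of the 70, and 23 of the 244 mature sequences annotated for young loci were listed. Of 49 members that shared at least 10 nt with an annotated mature miRNA, 28 had the same 5′ end, 41 lay within 2 nt of it and 8 lay farther away. The other 21 had no such overlap at the locus where they were counted. Among them are the 3 sequences shared by MIR841a and MIR841b, counted at MIR841b. At MIR841a these begin 3 nt before, at and 1 nt after the 5′ end of miR841a-3p, and 1 of them is that miRNA. The rest came from the opposite arm or from other positions of the hairpin. At MIR863, from which miR863-3p is known to act on the mRNAs of the SERRATE gene and of a receptor-like kinase, the most abundant product began 6 nt before the annotated 5′ end and so had another seed. A single genomic match was found for 52 of the 70, and 6 sequences were shared by several young loci.

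The levels were uneven. The 5 most abundant loci held 79.1% of the value of the young loci, and 17 of the 34 loci rested on 1 sequence. miR824-5p (chromosome 4, 12625128 to 12625148, plus strand, TAIR10.1) ranked 43 among all listed sequences and miR400 ranked 163.

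**Figure D1:**
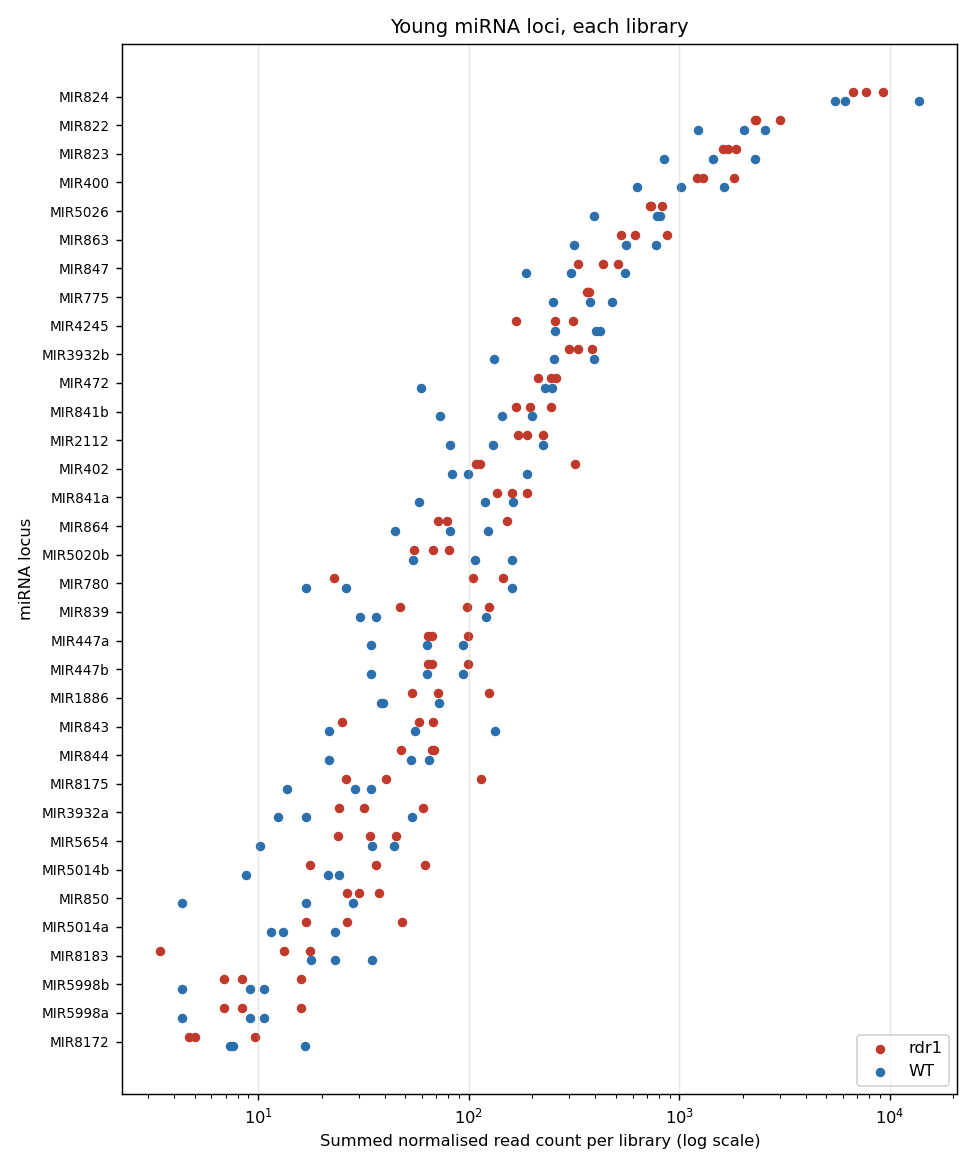
Summed normalised read count of each of the 34 young miRNA loci (log scale) in the 3 rdr1 libraries (red, upper points) and the 3 WT libraries (blue, lower points), with sequences that match several places divided between them. MIR824 leads in both genotypes. At 33 of the 34 loci the rdr1 and WT points overlap. The exception is MIR8183, where the nearest values, 17.6 and 17.8, lie less than 1 read apart.

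miR824 acts on the mRNA of AGL16, a MADS-box transcription factor that governs the divisions of the stomatal lineage and represses flowering. miR824-5p had 7633, 9218 and 6692 in rdr1 replicates 1 to 3, against 5490, 6083 and 13754 in WT replicates 1 to 3. Both the lowest and the highest value were WT libraries, and the log2 fold change, which is rdr1 over WT on the log2(value + 1) scale here and below, was 0.01 ± 0.75 (SE, limma adjusted p = 0.991). miR847 acts on the mRNA of IAA28, a repressor of auxin response. It had 398, 456 and 287 in rdr1, against 173, 280.3 and 499 in WT, and the groups overlapped (log2 fold change 0.37 ± 0.61, limma adjusted p = 0.753).

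The measured miRNAs with targets in DNA methylation did not differ beyond the spread between libraries. miR823 (chromosome 3, 4496826 to 4496846, minus strand) acts on CMT3, a methyltransferase that maintains methylation at CHG sites. Its values were 1639.5, 1784 and 1489 in rdr1, against 799, 1306 and 2195 in WT. The rdr1 values lay within the WT range (log2 fold change 0.31 ± 0.63, limma adjusted p = 0.769). miR402 is known to act on DML3, a glycosylase that removes 5-methylcytosine, and had 113, 320.4 and 108 in rdr1, against 98.9, 83.7 and 189 in WT. One rdr1 library was high and the other two lay within the WT range (log2 fold change 0.44 ± 0.64, limma adjusted p = 0.753).

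miR400 (chromosome 1, 11785947 to 11785967, plus strand) is cut from an intron of AT1G32583 and acts on mRNAs of pentatricopeptide repeat proteins, which edit and process organelle RNAs. It had 1759.9, 2359.7 and 1570.5 in rdr1, against 858, 1437 and 2283 in WT, overlapping ranges with a log2 fold change of 0.40 ± 0.64 (limma adjusted p = 0.753). Its second genomic match lies antisense at a target site, so these reads cannot be assigned to 1 place by sequence. The same host gene holds MIR5654, 254 bases farther on, whose listed product had 45.2, 23.99 and 33.9 in rdr1 and 10.2, 34.7 and 44.2 in WT. The level of MIR5654 was thus far below that of miR400 in all 6 libraries.

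A similar difference was seen at the non-coding RNA gene AT4G13495 on chromosome 4, which holds MIR5026, MIR850 and MIR863 with 1018 and 669 bases between them. miR5026 had 1454, 1475 and 1664 in rdr1, against 788, 1616 and 1561 in WT. The leading MIR863 product had 266, 479.8 and 337 in rdr1, against 189, 346 and 452 in WT. miR850 had 26.3, 37.7 and 30.3 in rdr1, against 4.36, 16.9 and 28.1 in WT. The order of the 3 was the same in all 6 libraries, the groups overlapped for each, and the limma adjusted p was 0.777, 0.835 and 0.753 for them in this order.

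miR472 acts on mRNAs of the NLR class of resistance proteins and is known to trigger secondary siRNAs, which RDR6 helps to make. Its precursor lies in an exon of AT1G12290, itself such a gene. Its most abundant product, from the 5p arm, had 91.6, 92.5 and 113 in rdr1, against 24.7, 95.2 and 125 in WT (log2 fold change 0.55 ± 0.68, limma adjusted p = 0.753). Its leading 3p product had 92.8, 70.3 and 89.7 in rdr1, against 26.2, 81.0 and 64.3 in WT (log2 fold change 0.69 ± 0.70, limma adjusted p = 0.753). For both products WT replicate 1 alone lay well below the other libraries.

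Among miRNAs with targets in metabolism and transport, miR447a-3p is known to act on 2-phosphoglycerate kinase mRNA and had 128, 199 and 133 in rdr1, against 68.4, 127 and 188 in WT. MIR447a and MIR447b lie 7055 bases apart and share this sequence, which cannot be assigned to one of them. miR780, with the cation/proton exchanger gene CHX18 as a known target, was the most variable of this group. Its leading product from position 150 had 69.0, 101 and 18.2 in rdr1, against 16.0, 9.79 and 115 in WT, so that each genotype held both low and high libraries. miR844-5p had 47.7, 68.5 and 66.6 in rdr1, against 21.8, 53.4 and 65.1 in WT.

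The groups by target class were therefore covered in part. Of miRNAs aimed at methylation genes 2 of 5 were measured, at NLR genes 1 of 2, at developmental regulators 2 of 2, at metabolism and transport 5 of 8 and at pentatricopeptide repeat genes 1 of 2. Those aimed at MYB genes (0 of 3), jacalin lectin genes (0 of 2), F-box genes (0 of 4) and retrotransposons (0 of 8) held no listed sequence. Every listed sequence reached at least 20.07 in a library, the lowest best value of any of them. The rule of listing is not stated, and sequences that are not listed were not analysed here. In the loci fit 0 of the 11 measured loci passed the test, and all 11 had a log2 fold change above 0, against 4 of 11 with median of ratios scaling and 6 of 11 without WT replicate 1. MIR447a and MIR447b rest on the same shared sequence and are not separate measurements. Of all 34 young loci 29 lay above 0 in the same fit.

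No young miRNA passed the test between the genotypes. Over sequences, 0 of 70 were called at a limma adjusted p under 0.05, where 39 of all 18043 tested were called (0.216%). Over loci it was 0 of 34, with 1 of 944 called in all (0.106%), and over units of locus, arm and length class 0 of 48, with 1 of 232 called (0.431%). Without adjustment, 2 sequences, 0 loci and 0 units had a limma p under 0.05. Over all tested features these were 442 of 18043 sequences, 35 of 944 loci and 2 of 232 units. On recovered reads edgeR and DESeq2 also called 0 in each fit, with 2 and 1 sequences, 0 and 0 loci and 1 and 4 units at an unadjusted p under 0.05. Over the same numbers of tested features these were 605 and 1258 sequences, 55 and 69 loci and 3 and 6 units, the young ones included. With 3 libraries a group a p that misses the threshold does not show that levels were the same.

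Groups that did not overlap were found, higher in rdr1, for 4 of 70 sequences, which is 5.71%, beside 2.98% of all tested, and lower in rdr1 for 3 of 70, which is 4.29%, beside 2.31% of all tested. For loci these were 0 of 34 higher (0.636% of all tested) and 1 of 34 lower (5.3% of all tested). For units they were 1 of 48 higher (2.08%, beside 0.431% of all tested) and 3 of 48 lower (6.25%, beside 1.72% of all tested). Over all 232 units these shares stand for 1 and 4 units, mostly the young ones themselves, and so give no separate reference. The lower units were the 5p arm of MIR4245, the 24-nt product of MIR775 and MIR8183. The MIR822 product from position 96 and that of MIR8183 reached 20.07 only in the group where they were high. Being listed thus leaned toward such a gap, and they are no support for a difference. For these, the 24-nt product of MIR775 and the MIR863 product from position 232, the groups lay less than 1 rdr1 read apart. All these gaps were read on the deposited values, and other scalings were not tried for them. The 70 sequences are not independent, since overlapping variants come from 1 hairpin.

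The median log2 fold change of the 70 sequences was 0.50 and that of all tested sequences 0.47, with 60 of 70 members above 0 and 37 above the median of all tested. With median of ratios scaling the table's median was 0.01 and 37 of 70 members lay above 0, so that the direction of the young miRNAs as a whole rested on the scaling. WT replicate 1 was the lowest of the 6 libraries for 54 of the 70, and without it the median of the members was 0.13 and that of all tested 0.04. For loci the median was 0.42 against 0.19 over all tested loci, and 29 of 34 lay above 0, or 15 of 34 with median of ratios scaling.

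The young sum was 20120, 23920 and 18110 in rdr1, against 11840, 16560 and 28180 in WT. The lowest and the highest sum were both WT (20720 ± 2949 in rdr1 and 18860 ± 8410 in WT, SD, n = 3 each, exact two-sided permutation p = 0.8, where 0.1 is the smallest that 3 against 3 allows). As a share of all miRNA value, which does not depend on the scaling between libraries, young miRNAs made up 3.37%, 3.58% and 3.24% in rdr1, against 4.09%, 2.97% and 3.74% in WT (exact permutation p = 0.6). MIR824 alone held 38.4%, 38.7% and 37.1% of the young value in rdr1, against 46.5%, 37.2% and 49.2% in WT. Without it the mean share of the young miRNAs was 2.13% ± 0.0839 in rdr1 and 2.02% ± 0.187 in WT (SD, n = 3 each, exact permutation p = 0.5), a difference of the opposite sign.

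**Figure D2:**
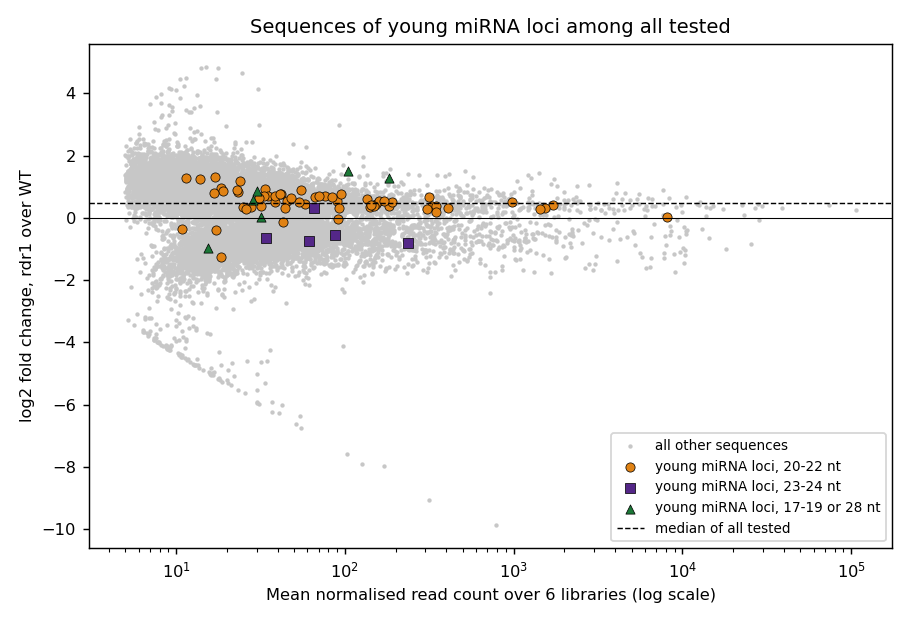
log2 fold change (rdr1 over WT) of every tested sequence against its mean normalised read count over the 6 libraries (log scale), with the young miRNA sequences coloured by length class and the dashed line at the median of all tested, 0.47. Young sequences of 20 to 22 nt lie around this line, 54 of 59 of them above 0, while 4 of the 5 of 24 nt lie below 0.

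Young products of 20 to 22 nt and of 24 nt mostly lay on different sides of 0. Among those of 20 to 22 nt, 54 of 59 had a log2 fold change above 0 with a median of 0.52, close to all tested sequences of this length (90.4% above 0, median 0.55). Some of them reached 20.07, the lowest best value of any listed sequence, only in the group where they were high. In rdr1 these were the products of MIR5014b, the MIR472 product from position 136 and the MIR822 product from position 96. In WT they were that of MIR8183 and the MIR780 product from position 129. Being listed thus leaned toward their sign, which bears on the counts of signs here and above. Among the 24-nt members 1 of 5 was above 0, with a median of -0.66, where 40.4% of all tested sequences of 23 to 24 nt were above 0 with a median of -0.36. The median of each young class thus had the sign of its length in the whole table. Older miRNA sequences of 23 to 24 nt differed, with 5 of 6 above 0 and a median of 0.14. Without WT replicate 1, which had the largest share of longer sequences, the 24-nt median was -0.28 and that of 20 to 22 nt 0.18. With median of ratios scaling 0 of the 5 members of 24 nt and 33 of the 59 of 20 to 22 nt lay above 0. The part of fragment length in this result was not tested.

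The most abundant 24-nt member came from the 5p arm of MIR4245 (chromosome 5, 21161507 to 21161530, plus strand), a hairpin in an intron of AT5G52070. It had 105, 223 and 199.9 in rdr1, against 320.0, 233 and 343 in WT. In the deposited values every rdr1 library lay below every WT library, by a small margin between the nearest ones. The difference did not pass the test (log2 fold change -0.81 ± 0.62, limma adjusted p = 0.753). Its 3p product, which holds the annotated miRNA with the same 5′ end, had 62.7, 89.1 and 55.7 in rdr1 and 82.9, 24.9 and 76.3 in WT, which overlapped. The 3p share of the locus was therefore 37.3%, 28.6% and 21.8% in rdr1, against 20.6%, 9.65% and 18.2% in WT.

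The 24-nt product of MIR775 began 21 nt before miR775, a 20-nt miRNA that acts on a galactosyltransferase mRNA involved in cell wall pectin. It had 31.4, 53.1 and 52.1 in rdr1, against 106, 54.3 and 72.3 in WT, while miR775 itself had 334, 317 and 319 in rdr1, against 144, 324 and 407 in WT. The 24-nt groups did not overlap and those of miR775 did (log2 fold change -0.74 ± 0.72 and 0.28 ± 0.61, limma adjusted p = 0.753 and 0.776). The nearest 24-nt values, 53.1 in rdr1 replicate 2 and 54.3 in WT replicate 2, lay less than 1 read of that rdr1 library apart (worth 1.71). The 24-nt share of the locus was 8.59%, 14.35% and 14.05% in rdr1, against 42.4%, 14.35% and 15.1% in WT, so that the groups met at the same value and WT replicate 1 stood far above the other 5 libraries.

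The remaining 24-nt members overlapped between the genotypes. That of MIR5020b had 55.2, 80.5 and 67.9 in rdr1, against 160.0, 107 and 54.6 in WT. That of MIR8172, which matches 4 places in the genome, had 20.1, 18.9 and 38.8 in rdr1, against 66.9, 29.4 and 30.5 in WT. Both were highest in WT replicate 1.

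**Figure D3:**
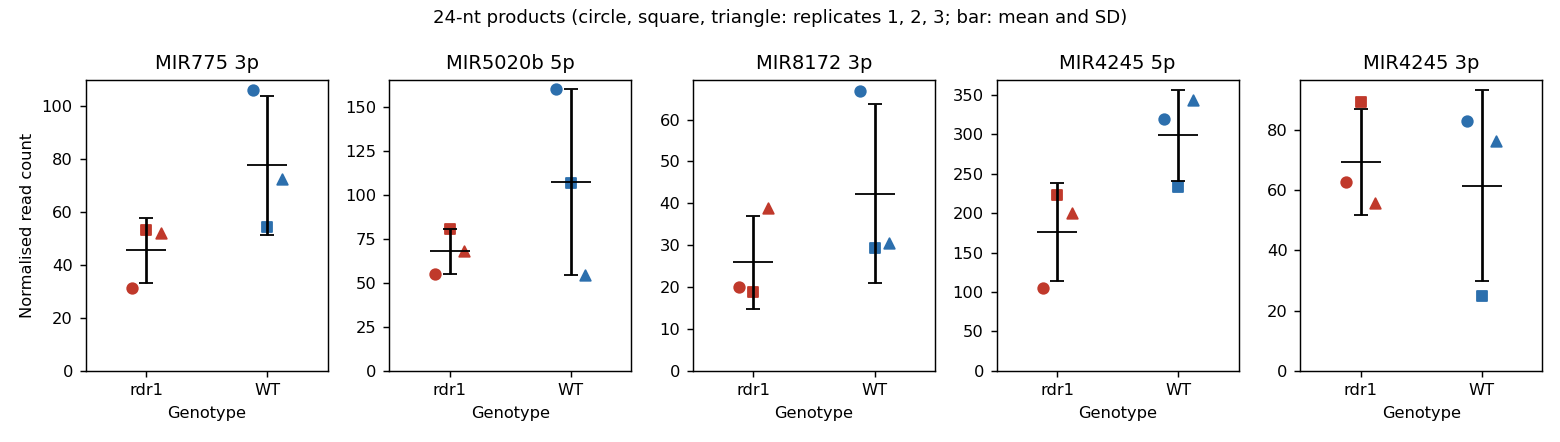
Normalised read counts of the 5 young miRNA products of 24 nt in rdr1 and WT libraries, with circle, square and triangle for replicates 1, 2 and 3 and a bar for the mean and SD (n = 3 each). The MIR4245 5p product and the MIR775 product are lower in every rdr1 library than in any WT library, and the other 3 overlap. For MIR775 the nearest values, 53.1 and 54.3, lie less than 1 read of rdr1 replicate 2 apart (worth 1.71).

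Within the young value of 20 to 24 nt, products of 23 to 24 nt made up 1.44%, 1.97% and 2.32% in rdr1, against 6.27%, 2.76% and 2.07% in WT (exact permutation p = 0.2). Over all listed sequences of these lengths the share was 11.2%, 12.5% and 15.8% in rdr1 and 28%, 14.2% and 11.5% in WT. WT replicate 1 was the highest in both. The 3p arm held 43.2%, 42.0% and 44.8% of the young value in rdr1, against 36.7%, 44.1% and 35.2% in WT (exact permutation p = 0.3), and MIR824, whose listed products are all from the 5p arm, ordered the libraries the other way round.

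**Figure D4:**
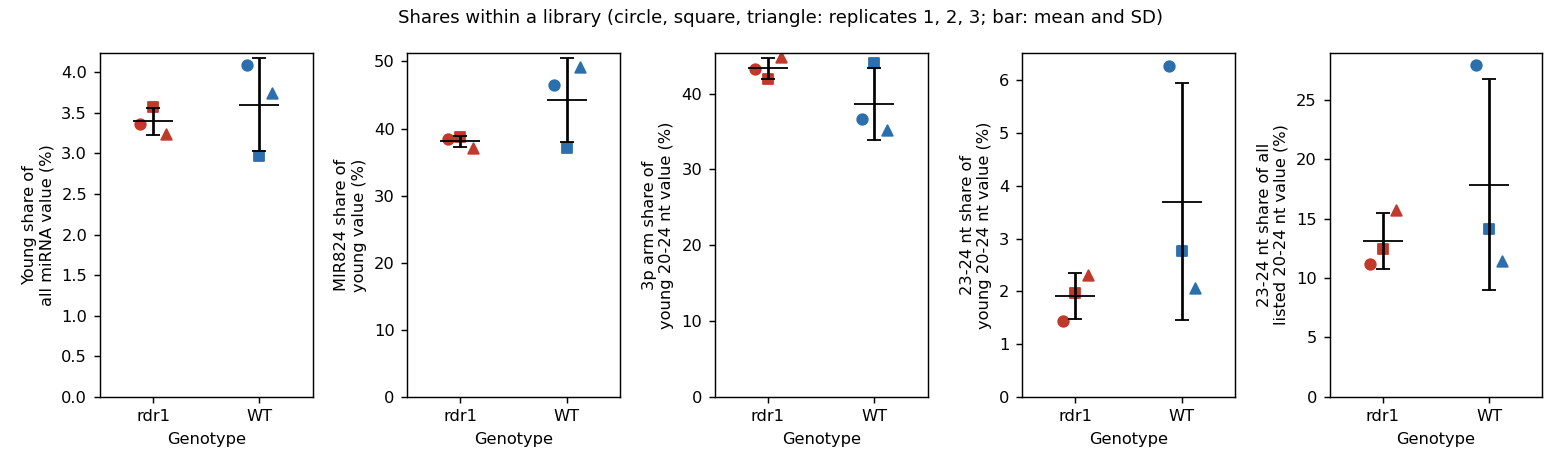
Shares within each library in percent, for rdr1 (left, red) and WT (right, blue), with circle, square and triangle for replicates 1, 2 and 3 and bars for mean and SD (n = 3 each). The panels show the young share of all miRNA value, the MIR824 share, the 3p arm share and the 23 to 24 nt share of the young miRNAs, and the 23 to 24 nt share of all listed sequences; rdr1 and WT overlap in each.

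MIR822 is a long hairpin of 337 nt in an intron, antisense to AT5G03553, whose product is known to act on mRNAs of DC1-domain proteins and is known to be cut by DCL4. It held 10 listed sequences, the largest number of any young locus here. Its 3p products began at positions 270, 291 and 313 of the precursor, 21 and 22 nt apart, with variants that began 1 nt to either side. The middle one, from position 291 (chromosome 5, 897046 to 897066, minus strand), was more abundant than the annotated miR822-3p. It had 1103, 1269.8 and 1029 in rdr1, against 563, 919 and 992 in WT. The groups did not overlap in the deposited values, and the difference did not pass the test (log2 fold change 0.50 ± 0.62, limma adjusted p = 0.753). miR822-3p had 396, 519 and 425 in rdr1, against 219.7, 427 and 474 in WT, and the product from position 313 had 275, 490.1 and 329.6 in rdr1, against 170.2, 259.9 and 452 in WT. Both overlapped between the genotypes, and their log2 fold changes of 0.32 ± 0.61 and 0.38 ± 0.61 were within the error of that of the middle one.

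The 5p arm of MIR822 gave much less. Its product from position 72 had 43.9, 63.4 and 47.3 in rdr1, against 20.4, 30.3 and 42.6 in WT, and that from position 96 had 15.1, 37.7 and 19.4 in rdr1, against 2.91, 12.5 and 14.5 in WT. Neither overlapped between the genotypes, but the nearest values lay close, at 43.9 and 42.6 and at 15.1 and 14.5. A read of rdr1 replicate 1 was worth 1.25. The product from position 96 reached 20.07, the lowest best value of any listed sequence, only in rdr1, the group where it was high. The 3p share of the locus was 97.5%, 96.6% and 97.0% in rdr1, against 98.1%, 97.9% and 97.8% in WT. The other sequence whose groups did not overlap, higher in rdr1, was a variant of the MIR863 product that began at position 232, with 42.6, 66.8 and 44.8 in rdr1, against 14.5, 40.9 and 41.8 in WT. Its nearest values, 42.6 and 41.8, lay less than 1 read of rdr1 replicate 1 apart (worth 1.25).

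**Figure D5:**
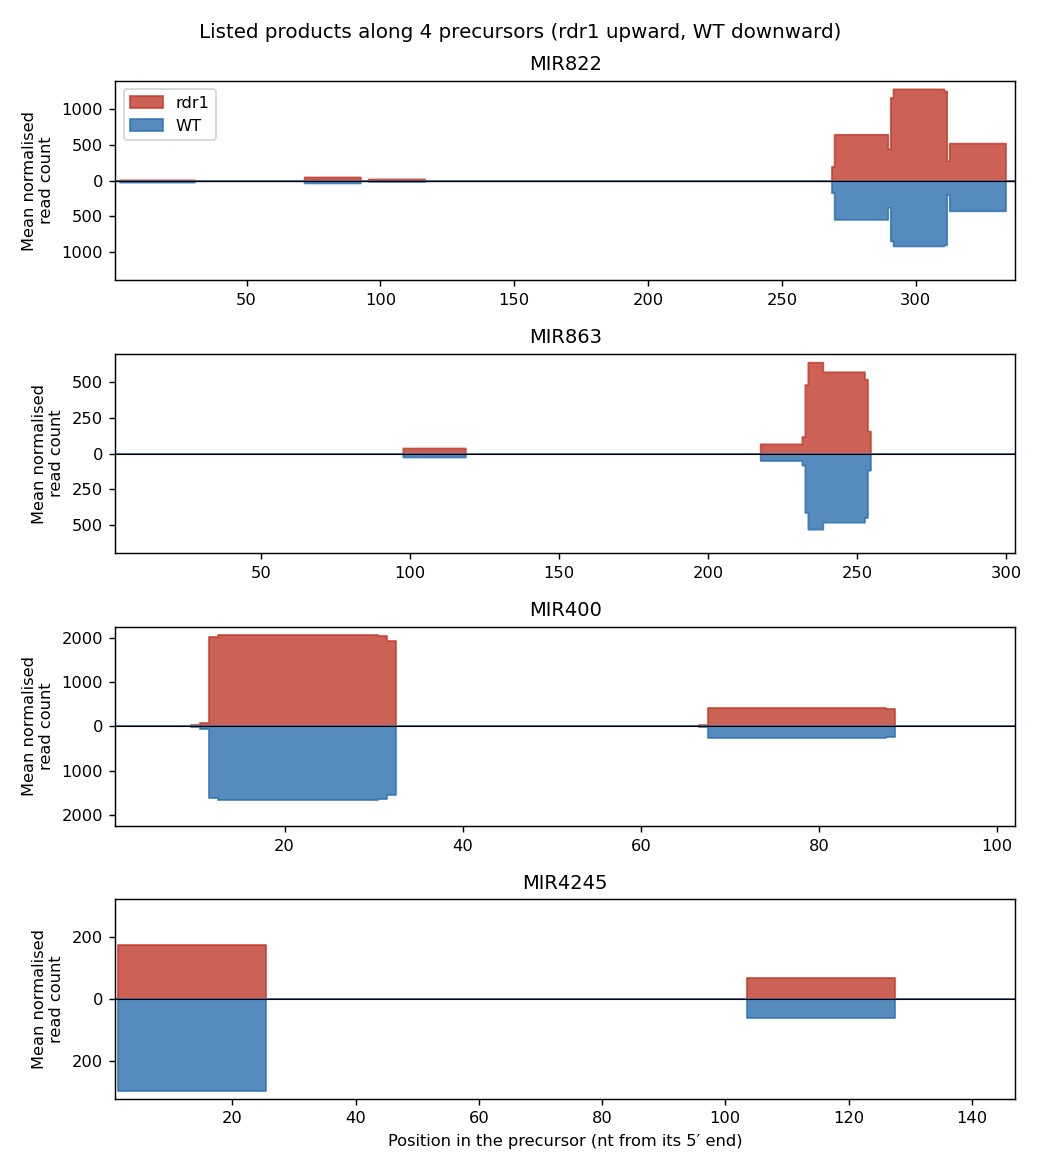
Mean normalised read count over the listed products at each position of the precursors of MIR822, MIR863, MIR400 and MIR4245, for rdr1 (red, upward) and WT (blue, downward), with the distance from the precursor's 5′ end in nt. MIR822 shows adjoining blocks on its 3p arm from positions 270, 291 and 313, MIR863 one main block from position 233, and MIR400 and MIR4245 a block on each arm.

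Products that follow each other at 21 nt were also seen at MIR780 (3p arm, positions 129 and 150) and, with products of 24 and 20 nt, at MIR775 (3p arm, positions 74 and 95). Pairs of listed products that form a duplex with 2-nt 3′ overhangs in the predicted fold, the form in which Dicer-like enzymes release them, were found at MIR823 and MIR3932b. At MIR823 the partner on the 5p arm had 60.2, 80.5 and 119 in rdr1, against 43.6, 139.7 and 104 in WT, far below miR823 itself. The strand ratio leaned the same way in both genotypes, with 96.5%, 95.7% and 92.6% on the 3p arm in rdr1 and 94.8%, 90.3% and 95.5% in WT. At MIR400 the leading products of the arms do not pair with such overhangs in the predicted fold. The 3p product had 329, 482 and 344 in rdr1, against 169, 219 and 358 in WT, and the 3p share was 15.3%, 17.05% and 17.5% in rdr1 and 16.4%, 13.0% and 13.6% in WT. Over 10 ratios within a locus, all compared by exact two-sided permutation tests, the smallest p was 0.1 (MIR4245, MIR822 and MIR775), which is the smallest the design allows, and 0.333 after Benjamini-Hochberg adjustment. For MIR775 it rests on 14.35% in both rdr1 replicate 2 and WT replicate 2, which differ by only 0.0011 percentage points.

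Several young loci stand in related pairs. MIR3932a and MIR841b lie on the plus strand of chromosome 4 with 5012 bases between them, and MIR841a and MIR3932b on its minus strand with 5107 bases between them, so that the same 2 families neighbour each other in both places. The leading product of MIR841a, which overlaps the histone H2A gene HTA4 in antisense direction, was also that of MIR841b. It had 187, 204 and 159 in rdr1, against 71.3, 152 and 178 in WT. MIR5998a and MIR5998b overlap on opposite strands of chromosome 5 and share 1 listed sequence.

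The lower locus, MIR8183, lies in a transcribed pseudogene, AT3G30110, and had 17.6, 3.43 and 13.3 in rdr1, against 34.9, 17.8 and 23.3 in WT. These rest on 27 reads over the rdr1 libraries and 73 over the WT libraries (log2 fold change of the sequence -1.27 ± 0.96, limma adjusted p = 0.753). The groups lay close to each other at 17.6 and 17.8, less than 1 read apart at the worth of a read given above. The sequence reached 20.07, the lowest best value of any listed sequence, only in WT, the group where it was high.

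Both sequences with an unadjusted limma p under 0.05 were short fragments counted at MIR8175. The 18-nt fragment, with 11 genomic matches, had 542, 158 and 105 in rdr1, against 39.3, 157 and 99.6 in WT (log2 fold change 1.28 ± 0.64, limma adjusted p = 0.753). The 17-nt fragment, with 12 matches, had 394, 77.1 and 38.8 in rdr1, against 26.2, 46.3 and 40.2 in WT (log2 fold change 1.51 ± 0.71, limma adjusted p = 0.753). Both were highest in rdr1 replicate 1, the library with the largest share of sequences of 17 to 19 nt. Both match an annotated tRNA gene at 1 of their places, where they run 3 nt past its end with the bases CCA. Whether they came from the precursor or from tRNAs was not tested. Without rdr1 replicate 1 the log2 fold changes of the 18-nt and 17-nt fragments were the lowest of all libraries left out, 0.59 and 0.57. The 21-nt sequence counted at the same locus ends at the same base. It had 64.0, 39.4 and 26.7 in rdr1, against 16.0, 21.4 and 44.2 in WT, which overlapped.

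The complementary sites of 4 members in genes known as their targets are shown with mismatched bases in capitals, written 5′ to 3′ on the strand of the mRNA. G:U pairs count as mismatches, and the sites were read from the reference TAIR10.1. The 4 were chosen from 10 pairs searched after the sites were seen, and fit more closely than most of the others.

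AGL16, site of miR824-5p: tcTcttctcacaaatggtcta
AT1G06580, site of miR400: gtgacttataatactctcata
CMT3, site of miR823: GtcttatatgatcaTcacccT
DML3, site of miR402: cTgaggtttaataggcctcgGa

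The AGL16 site (chromosome 3, 21180537 to 21180557, plus strand) had 1 mismatch over 21 nt, and that of AT1G06580, a pentatricopeptide repeat gene (chromosome 1, 2014950 to 2014970, minus strand), had 0. The CMT3 site (chromosome 1, 26249567 to 26249587, minus strand) had 3 mismatches and the DML3 site (chromosome 4, 16314684 to 16314705, plus strand) had 2 over 22 nt. Of the other known pairs searched, the leading 3p product of MIR472 had a best site with 2 mismatches in its own host gene AT1G12290, and its more abundant 5p product 7. The leading products of MIR775 (AT1G53290), MIR847 (IAA28), MIR780 (CHX18), MIR844 (CDS3) and MIR863 (SERRATE) had 3, 4, 4, 6 and 7 mismatches at their best ungapped sites. The MIR863 product begins 6 nt before the annotated miR863-3p, which was not listed and not searched, so its count is not that of the known pair. A match in sequence is no measure of cleavage, and mRNA levels were not measured here.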

How the data were processed

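The deposited table holds normalised signal values, with a row for each distinct sequence and a column for each library, per the file headers. Per the submitters' processing notes the build was TAIR10. The sources used here name no aligner, trimming, filter or normalisation method. Each deposited value was a whole multiple of a step fixed within a library (100% of values within 0.01 of a read). Each step was 8000000 divided by a whole number, taken as the library total, whose content is not stated.

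Sequences were matched without mismatch to TAIR10.1. MIR5642a and MIR5642b, within 1000 bases before an 18S gene, were counted as rDNA and left out with their 3 sequences. Arms were read from the minimum free energy fold of the precursor (ViennaRNA 2.7.2). limma 3.58.1 (empirical Bayes with trend, two-sided) was run on log2(value + 1) for features with a mean of at least 5, and Benjamini-Hochberg adjustment covered all features tested. The fits were of all sequences, of all annotated nuclear loci (sense strand, sequences with several matches divided equally) and of arm and length units of all miRNA loci. Library values were compared by exact permutation tests. Within a genotype all pairs of libraries differed by more than sampling noise (chi-square per degree of freedom 8.59 to 52.1).

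Loci were named with a mean of at least 50, among the 5 smallest p, or in a target group. The members, lists and groups were chosen with earlier results of these data known. Ratios within a locus, loci with non-overlapping groups and target sites were chosen after their values were seen. Alternatives were other pseudocounts, filters, scalings, a replicate block, each library left out, and edgeR 4.0.16 and DESeq2 1.42.0 on recovered reads. R 4.3.3, Python 3.11.15, numpy 2.4.6, pandas 2.3.3 and matplotlib 3.10.9 were used.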

Additional observations from a re-analysis of the deposited data

How the results depend on the processing

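Calls of young miRNAs stayed at 0 for sequences, loci and units under each alternative run, leaving out a library included. The difference of the summed value (rdr1 minus WT, 1855) was -4044 with median of ratios scaling and -1168 with scaling to the older miRNA sum. It ranged from -1655 (without WT replicate 1) to 6515 with a library left out. The difference of the share of miRNA value (-0.20 percentage points) was 0.110 without MIR824, which was chosen after seeing the data, and ranged from -0.521 to 0.0410 (without WT replicate 1) with a library left out. Of 29 named loci 11 changed sign with median of ratios scaling, 7 without WT replicate 1, 4 with the older miRNA scaling, 3 each without WT replicate 2 and without rdr1 replicate 2, 2 each with edgeR and DESeq2, and 1 without rdr1 replicate 1. The cause was not tested.

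Same-numbered libraries of the 2 genotypes deviated in opposite directions over all sequences (r = -0.715, -0.301 and -0.529), so the numbers were not taken as pairs. With the replicate block 0 young sequences, loci or units were called, 7 of all sequences were called in place of 39, and the difference of the summed value was 1855 (exact sign-flip p = 1). Reads per sequence limit the lowest members, down to 21 reads over a genotype's 3 libraries.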
